A study of Mus musculus with 6 samples.

Results

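The mitochondrial ribosomal protein genes are the nuclear genes that encode the protein subunits of the mitochondrial ribosome. They were taken as the protein-coding genes of the deposited gene table whose GENCODE M21 symbol starts with Mrpl or Mrps followed by a digit, leaving out pseudogene names. The rule found 78 genes, 49 named Mrpl and 29 named Mrps, among 21785 protein-coding genes and 36065 genes in all. The rule uses names alone, but the family was chosen with earlier results of these data known. RNA was measured in wild-type 1-cell mouse embryos after culture in vitro, in 3 groups of 2 biological replicates each, 6 libraries in total. The groups received CBR-5884, an inhibitor of serine metabolism, together with S-adenosylmethionine, the cell's methyl donor (CBR+SAM), CBR-5884 alone (CBR), or DMSO as the control (DMSO). All 3 groups share the wild-type genotype and the culture, and the labels give no doses, culture times, strain or numbers of embryos per library. The study asked what serine metabolism contributes to the development of the zygote.

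The mitochondrial ribosome translates the few messenger RNAs of the mitochondrial genome, all of which encode inner membrane proteins of the respiratory chain and the ATP synthase. Its ribosomal RNAs come from mitochondrial DNA, whereas every protein is made in the cytosol and imported, so a working ribosome needs many nuclear genes expressed together. The large subunit (Mrpl proteins) holds the site of peptide bond formation and the exit tunnel, and the small subunit (Mrps proteins) decodes the messenger RNA. Some of the proteins have a bacterial homologue and others are specific to mitochondria. The oocyte passes a large stock of mitochondria and of maternal messenger RNA to the embryo, and the 1-cell embryo lives largely on that stock.

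The table gave 1 abundance value per gene and library on a scale that corrects for transcript length, so values can be compared between genes. Columns summed to between 956208.5 and 1059424, read counts were not used here, and the read depth behind a value is unknown. All 12 zygote and oocyte markers were detected, with summed values of 26443 to 32748 with CBR+SAM, 27228 to 29403 with CBR and 26073 to 27604 with DMSO. Of the 16 cumulus cell markers 3 were high enough to test, and the list summed to 17.6 to 18.4 with CBR+SAM, 18.3 to 19.4 with CBR and 12.5 to 17.6 with DMSO, with Inhbb at 0. The 12 sperm markers summed to 40.2 to 51.2 in all libraries, with Tnp1 and Smcp at 0, and the 10 blood cell markers to at most 0.938 in any library. The part of these other cells in the results was not tested. In such bulk samples fewer cells of a type and less RNA per cell cannot be told apart.

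Transcripts of the mitochondrial ribosomal proteins were well represented in the 1-cell embryo. Their genes lie on 17 chromosomes, 11 of them on chromosome 11. The mean over the 6 libraries was at least 100 for 12 genes, between 10 and 100 for 54, between 1 and 10 for 10, and under 1 for 2. The median gene stood at 32.0, against 10.4 for the 11019 protein-coding genes tested, and 66 of the 78 lay above that median. Mrpl genes had a median level of 29.1 and Mrps genes of 34.3. The 46 members with a bacterial homologue had a median of 30.6, and the 31 specific to mitochondria had 33.1. Level did not follow transcript length (Spearman's rho -0.0108 across the 78 genes, which are not independent replicates).

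**Figure D1:**
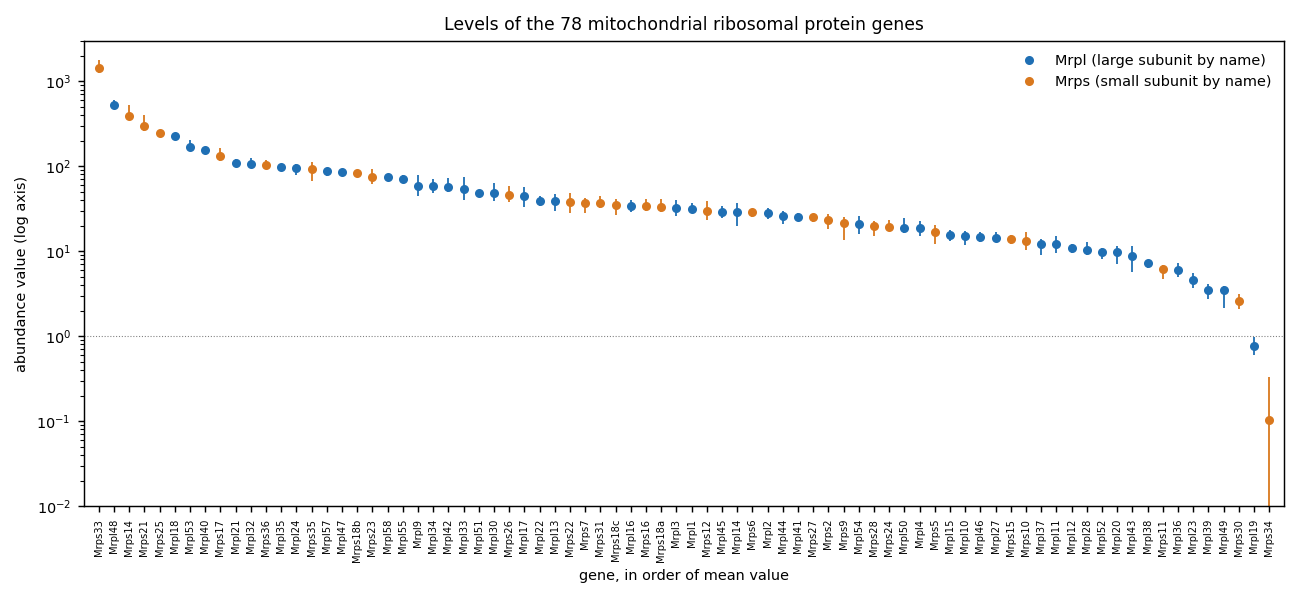
Abundance value (log axis) of each of the 78 genes in order of their mean over the 6 libraries, with the vertical line spanning the lowest and the highest library and the dotted line at a value of 1. The order starts with Mrps33 and Mrpl48 and ends with Mrpl19 and Mrps34, and the line of Mrps34, listed at 0 in 2 libraries, runs to the lower edge of the axis.

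A single small-subunit gene dominated the family. Mrps33, a small-subunit protein specific to mitochondria, had 1427 and 1779.9 with CBR+SAM, 1286 and 1245 with CBR, and 1466 and 1375 with DMSO. Its mean of 1430 was 2.7-fold above the next gene and made up 21.4% to 25.9% of the summed level of all members. Among protein-coding genes tested, 99.1% had a lower mean. Mrpl48, a large-subunit protein specific to mitochondria, had 519 and 606 with CBR+SAM, 489 and 530.0 with CBR, and 520.0 and 512 with DMSO. Mrps14, the homologue of bacterial S14, had 365 and 529 with CBR+SAM, 350.4 and 384 with CBR, and 367 and 374 with DMSO. In each of these 3 genes the second CBR+SAM library was the highest of the 6.

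The next places were taken by Mrps21 (mean 294), Mrps25 (245), Mrpl18 (226), Mrpl53 (168) and Mrpl40 (153). Mrps21, the homologue of bacterial S21, had 264 and 398 with CBR+SAM, 257 and 293 with CBR, and 268 and 285 with DMSO, so the second CBR+SAM library again stood highest. Mrps25, specific to mitochondria, had 241 and 256 with CBR+SAM, 236 and 222 with CBR, and 252 and 266 with DMSO. The 8 highest genes together held 55.7% to 60.3% of the summed level of the family in each library. From the highest to the lowest tested gene the means spanned 553-fold. The order was stable between libraries, with Spearman's rho of 0.966 to 0.991 across the 78 genes in the 15 pairs of libraries. Neighbours in the order could rarely be separated, since only 4 of 77 neighbouring pairs had ranges over the 6 libraries that did not overlap. These were Mrps33 above Mrpl48, Mrpl18 above Mrpl53, Mrps30 above Mrpl19 and Mrpl19 above Mrps34.

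Part of the order depends on how reads were divided between members and near-identical records. Copies with at least 95% identity over at least 80% of the coding sequence were found for 17 members in 22 records. Among these records, Gm42688 overlaps Mrpl53 itself on the same strand over 695 exon bases and had a mean of 0.311. The other 21 copies, of 16 members, lie elsewhere in the genome, and 4 of them had a mean of at least 10. The copy Gm5776 on chromosome 7, annotated as a processed pseudogene, had a mean of 352, with 348 and 426 with CBR+SAM, 338 and 296 with CBR, and 365 and 337 with DMSO. The coding sequences of Mrps33 and of Gm5776 differ at a single base out of 318, and the stretch from base 110 to 230 is shown for both, with that base as a capital. Reads that lie wholly inside the coding sequence and miss this base cannot tell the 2 records apart. The Mrps33 transcripts have a median length of 717 bases, and sequence outside the coding part was not compared. The difference is G171A, counted from the A of the start codon as position 1 with the base of Mrps33 first. The Mrps33 gene lies on the minus strand at chr6:39801804-39810988 and Gm5776 on the minus strand at chr7:54412158-54412478 (mm10, GENCODE M21), and both spliced stretches are given 5′ to 3′.
Mrps33: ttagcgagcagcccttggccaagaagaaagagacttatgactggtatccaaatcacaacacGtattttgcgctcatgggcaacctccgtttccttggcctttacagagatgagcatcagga
Gm5776: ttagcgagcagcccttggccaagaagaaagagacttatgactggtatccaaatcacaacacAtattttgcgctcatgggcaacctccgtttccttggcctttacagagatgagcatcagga

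With its copies added, Mrps33 averaged 1782 and kept the highest rank. Mrpl48 averaged 529 alone and 746 with its copy Mrpl48-ps, which is 98.1% identical and averaged 216, and it kept the second rank. Mrpl32, the homologue of bacterial L32, averaged 108, beside 10.1 for its copy Gm6578. The gene whose place changed most was Mrpl23, the homologue of bacterial L23 at the exit of the peptide tunnel. It had 3.71 and 3.93 with CBR+SAM, 4.99 and 5.25 with CBR, and 4.06 and 5.61 with DMSO. Its copy Mrpl23-ps1 on chromosome 2 had 17.9 and 28.4 with CBR+SAM, 21.4 and 22.0 with CBR, and 20.0 and 22.7 with DMSO. The copy thus held 82.8% of the combined mean of 26.7, and the place of Mrpl23 in the order was 73 alone and 46 with the copy. The gene lies on the plus strand at chr7:142532686-142540747. Its coding sequence, of which the first 120 bases are shown to stand for both records, is the same in the copy over all 438 bases, so the division of reads between them is uncertain.
Mrpl23: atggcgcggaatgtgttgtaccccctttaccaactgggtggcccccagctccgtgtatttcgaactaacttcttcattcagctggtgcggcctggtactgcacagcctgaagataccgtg

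The low end of the order held mostly Mrpl genes, which also make up 48 of the 76 tested. The 8 lowest tested genes were Mrpl43 (mean 8.70), Mrpl38 (7.29), Mrps11 (6.16), Mrpl36 (5.95), Mrpl23 (4.59), Mrpl39 (3.53), Mrpl49 (3.47) and Mrps30 (2.59). Mrps30, whose protein sits in the large subunit despite its name, had 2.69 and 2.19 with CBR+SAM, 2.29 and 3.10 with CBR, and 2.09 and 3.17 with DMSO. Mrpl19, the homologue of bacterial L19, had 0.846 and 0.976 with CBR+SAM, 0.763 and 0.692 with CBR, and 0.711 and 0.598 with DMSO, below the minimum for testing in all libraries. Mrps34, a small-subunit protein whose loss in humans causes a mitochondrial disease, had 0.334 and 0.0764 with CBR+SAM, 0 and 0.0541 with CBR, and 0.148 and 0 with DMSO, and was not tested either. The exons of Mrps34 overlap by 37.0% those of Nme3 on the same strand, and Nme3 averaged 26.3. They also overlap by 63.4% those of Mapk8ip3 on the opposite strand, which averaged 1.94. The library kits are not stated to mark strand, and in all 22 members have exons that overlap another protein-coding gene, so their values are uncertain. Mrps11 and Mrpl46 are such a pair on chromosome 7, placed head to head, with means of 6.16 and 14.5.

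Among members with known special roles, those named here had means between 10.8 and 104, while Mrps30 (2.59) and Mrps34 (0.102), given above, were lower. The 3 genes named Mrps18 stood at means of 84.0 for Mrps18b, 34.9 for Mrps18c, the homologue of bacterial S18, and 33.1 for Mrps18a, whose protein is placed in the large subunit by structures. Mrps36, whose protein is a component of the 2-oxoglutarate dehydrogenase complex rather than of the ribosome, averaged 104 and had 101 and 119 with CBR+SAM, 97.4 and 104 with CBR, and 105 and 99.99 with DMSO. Mrpl58, a peptidyl-tRNA hydrolase built into the large subunit that frees stalled ribosomes, had 78.2 and 77.0 with CBR+SAM, 70.5 and 72.3 with CBR, and 73.9 and 77.4 with DMSO. Its coefficient of variation over the 6 libraries, 4.15%, was the lowest of the 66 members with a mean of at least 10. The highest was that of Mrpl9, 24.4%, and the median was 13.4%, beside 12.5% for the 5588 protein-coding genes at that level. Among the stalk proteins that recruit translation factors, Mrpl10 averaged 15.0, Mrpl11 12.2 and Mrpl12 10.8. Besides Mrps34, genes in which human mutations impair mitochondrial translation averaged 37.7 (Mrps22), 34.3 (Mrps16), 32.7 (Mrpl3), 25.9 (Mrpl44) and 23.6 (Mrps2).

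The summed level of the family overlapped between the CBR+SAM and DMSO groups and was lowest in the CBR group. All 78 members summed to 5935 and 6865 with CBR+SAM, 5549 and 5807 with CBR, and 6048 and 6049 with DMSO. Both CBR libraries were the lowest 2, and the CBR+SAM libraries lay on either side of the DMSO ones. The place of the CBR libraries depended on Mrps33. Without it, the second CBR library (4562) lay above the first CBR+SAM library (4507). In the Mrpl sum the second CBR library (2714) lay above the first CBR+SAM (2668) and the first DMSO library (2697). Mrpl genes summed to 2773 ± 149 with CBR+SAM, 2631 ± 117 with CBR and 2725 ± 39.6 with DMSO (SD, n = 2 each). Mrps genes summed to 3627 ± 509 with CBR+SAM, 3047 ± 66.0 with CBR and 3324 ± 38.8 with DMSO (SD, n = 2 each). Without Mrps33 the Mrps sums were 1839 and 2207 with CBR+SAM, 1714 and 1848 with CBR, and 1886 and 1921 with DMSO. The ratio of the Mrpl sum to the Mrps sum was 0.817 and 0.722 with CBR+SAM, 0.850 and 0.877 with CBR, and 0.805 and 0.835 with DMSO. The CBR ratios were the highest 2 and the second CBR+SAM ratio the lowest, also without Mrps33, where the ratios ran from 1.30 to 1.49. These sums are descriptions, with 2 libraries a group and no test.

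**Figure D2:**
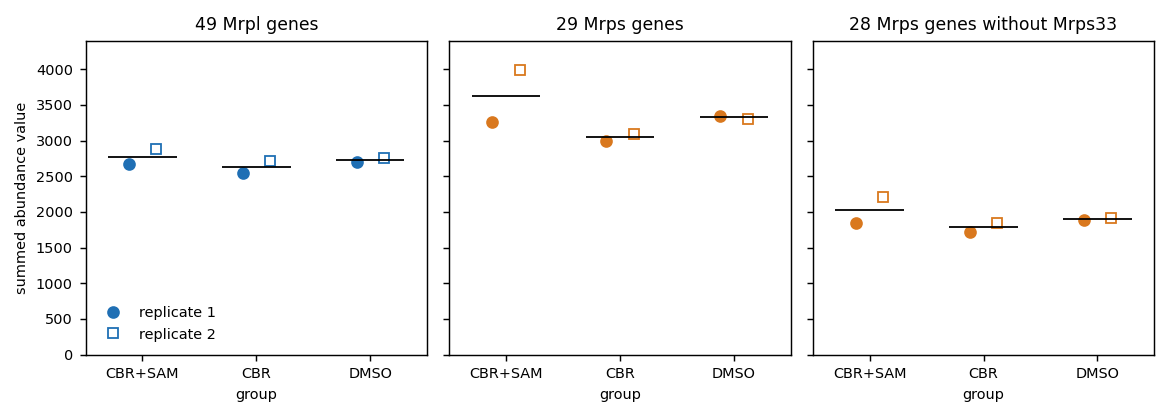
Summed abundance value of the 49 Mrpl genes, the 29 Mrps genes and the 28 Mrps genes other than Mrps33, with filled circles for replicate 1, open squares for replicate 2 and a line at the group mean. The second CBR+SAM library is the highest point of each panel (3987 for the Mrps genes), and the first CBR library is the lowest.

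Replicates of the same group also differed from each other, and most in CBR+SAM. In log2(value + 1), the second CBR+SAM library exceeded the first by a median of 0.10 over the 76 tested members, with an SD across genes of 0.363, and it was higher for 50 of them. The SD was 0.239 between the CBR libraries and 0.252 between the DMSO libraries. All 12249 genes tested likewise varied most in CBR+SAM, with an SD of 0.55 in CBR+SAM, 0.406 in CBR and 0.409 in DMSO, and 51.0% were higher in the second CBR+SAM library, with a median of 0.014. Of the 76 members, 29 had their highest value in the second CBR+SAM library and 27 had their lowest in the first CBR library. The shares of all genes tested with these extremes were not counted. The largest replicate differences at a mean of at least 10 were in Mrps9, Mrpl33 and Mrpl9 in CBR+SAM, Mrpl14 in CBR and Mrps10 in DMSO. Mrps9, the homologue of bacterial S9, had 25.4 and 13.4 with CBR+SAM, 24.3 and 22.1 with CBR, and 23.0 and 19.3 with DMSO. Mrpl33, the homologue of bacterial L33, had 42.5 and 74.995 with CBR+SAM, 53.1 and 40.2 with CBR, and 56.4 and 56.3 with DMSO. Mrps9 was thus lower and Mrpl33 higher in the second of the same pair of libraries. Mrpl9 had 77.9 and 48.8 with CBR+SAM, 57.7 and 44.3 with CBR, and 73.4 and 47.6 with DMSO, so replicate 1 was the higher in each group. The same held for Mrps10, the homologue of bacterial S10, with 15.7 and 11.2 with CBR+SAM, 15.2 and 10.5 with CBR, and 16.8 and 10.3 with DMSO. Mrpl14, the homologue of bacterial L14 at the subunit interface, had 24.3 and 36.7 with CBR+SAM, 19.9 and 32.1 with CBR, and 24.2 and 34.8 with DMSO, with replicate 2 the higher in each group.

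The difference between the CBR+SAM libraries was most one-sided among the shortest transcripts. Of the 25 tested members under 800 bases, 21 were higher in the second library, with a median difference of 0.26. Of the 29 members of 800 to 1500 bases, 16 were higher, with a median of 0.039, and of the 22 members of 1500 bases or more, 13 were higher, with a median of 0.097. The classes thus did not follow a steady order. Across the 76 members, rho between the difference and length was -0.371 in CBR+SAM, -0.129 in CBR and 0.164 in DMSO, as a description across genes. Of the 1387 tested protein-coding genes under 800 bases 62.7% were higher in the second library, with a median difference of 0.17. Of those of 800 to 1500 bases 1226 of 2485 were higher, and of those of 1500 bases or more 3493 of 7125. The part of length in the comparisons that use this library was not tested.

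**Figure D3:**
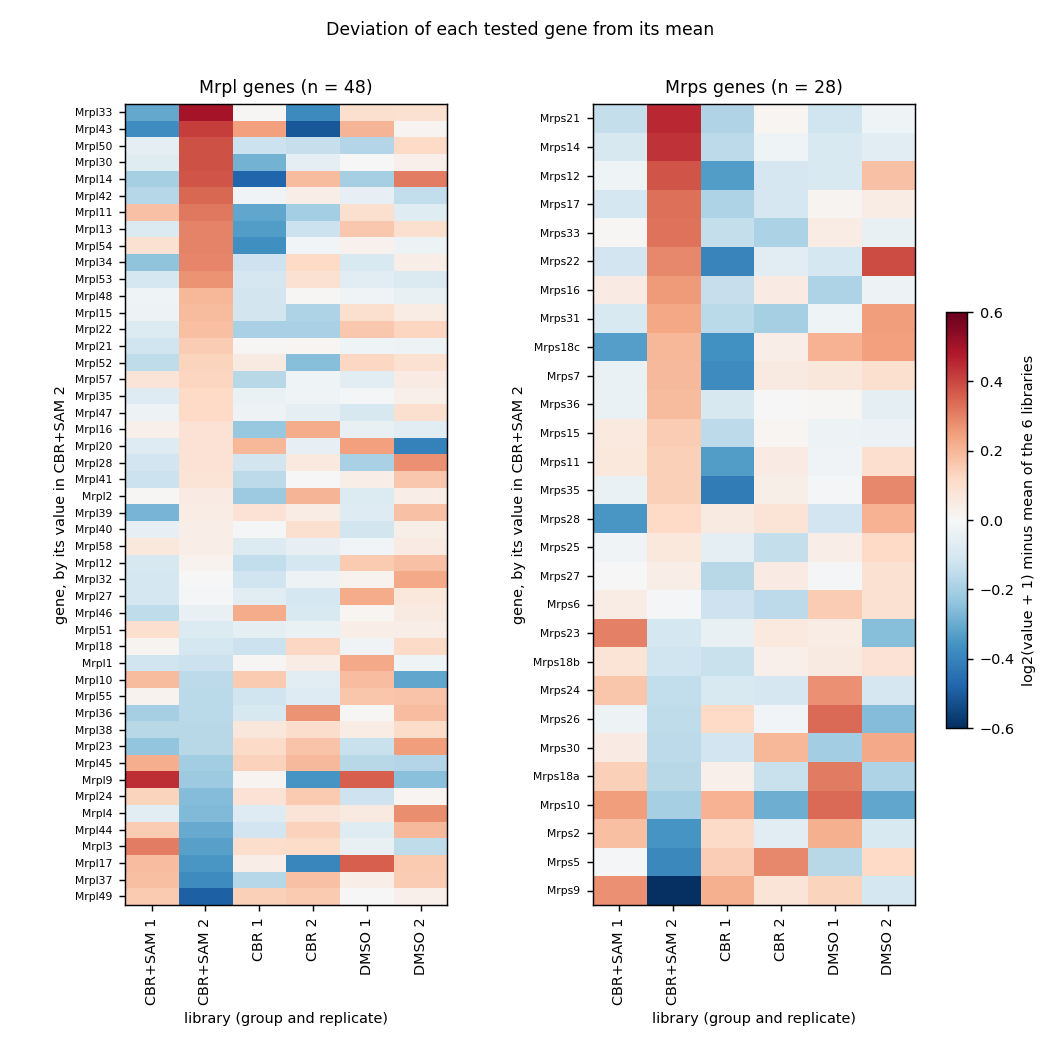
Deviation of log2(value + 1) of each of the 76 tested genes from its mean over the 6 libraries (red above, blue below), for the 48 Mrpl genes and the 28 Mrps genes, ordered by the deviation in the second CBR+SAM library. The widest range of colours is in that library, from Mrpl33, Mrps21 and Mrps14 above the mean to Mrpl49 and Mrps9 below it. Blue prevails in the first CBR library, which held the lowest value of 27 genes. The share of all genes tested with their lowest value there was not counted.

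With CBR alone against DMSO, no mitochondrial ribosomal protein gene passed the test. The test was limma on log2(value + 1) over 12249 genes with Benjamini-Hochberg adjustment and a threshold of 0.05. It called 0 of the 76 members and 0% of all genes, and the smallest adjusted p among members was 1.00 (limma). At an unadjusted p under 0.05 there were also 0 members, against 2.12% of all genes. The median member stood at -0.077 log2, beside -0.0074 for all genes tested, and 52 members had a negative and 24 a positive change, against 51.7% negative among all genes. Groups did not overlap for 25 members that were lower with CBR and 7 that were higher, which is 32.9% and 9.21% of the 76, against a background of 17.3% and 15.7% of all genes. Without the first CBR library the median was -0.031. Since nothing in the labels says how the embryos of a replicate were obtained, a p-value here reflects only how much these libraries vary.

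The 5 members lower with CBR that had the smallest p-values were Mrpl genes, as are 48 of the 76 tested. Mrpl22, the homologue of bacterial L22 that lines the exit tunnel, had 33.9 and 33.9 with CBR, against 43.8 and 42.7 with DMSO. Its change was -0.34 ± 0.16 log2 (SE), with a 95% interval from -0.71 to 0.027. Mrpl13, the homologue of bacterial L13, had 30.0 and 34.7 with CBR, against 42.7 and 40.9 with DMSO. Both genes were lower in both CBR libraries than in either DMSO library, and so were the others named here. This was required by the rule for naming, which took members from a comparison only where its groups did not overlap. Mrpl55 had 64.7 and 66.7 with CBR, against 79.2 and 79.3 with DMSO. Mrpl17, which neighbours the tunnel exit, had 45.5 and 33.5 with CBR, against 56.9 and 49.4 with DMSO, a change of -0.43 ± 0.23 log2 (SE) and the most negative of the family. Without the second CBR library it was -0.22, less negative than that of Mrpl13 (-0.46) or Mrpl22 (-0.34) in the same fit, and without the first it was -0.65. Mrpl12, the stalk protein also known to bind the mitochondrial RNA polymerase, had 9.61 and 9.92 with CBR, against 12.1 and 12.3 with DMSO. None of these changes passed the test.

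On the other side, Mrpl45, which in mammals tethers the ribosome to the inner membrane, had 31.9 and 33.2 with CBR, against 25.7 and 25.5 with DMSO. Its change of 0.34 ± 0.18 log2 (SE) was the largest positive one, with an interval from -0.096 to 0.77. Mrps5, the homologue of bacterial S5, had 18.3 and 20.3 with CBR, against 14.5 and 17.96 with DMSO. The groups were apart but the DMSO libraries differed from each other more than the nearest CBR and DMSO libraries did. Mrpl24, Mrpl3 and Mrpl42 were likewise apart, as the rule for naming required, with changes of 0.18, 0.21 and 0.11 log2. Both Mrpl24 and Mrpl3 have bacterial homologues, whereas Mrpl42 is specific to mitochondria.

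With CBR+SAM against CBR alone, no member passed the test either. It called 0 of the 76 members, against 0.00816% of all genes (limma, Benjamini-Hochberg). The 53 positive and 23 negative changes had a median of 0.078 log2, beside 0.014 for all genes, of which 52.4% were positive. Groups did not overlap for 17 members that were higher with CBR+SAM and 6 that were lower, 22.4% and 7.89% of the 76, against a background of 15% and 12.5%. This comparison shares its CBR libraries with the one before, so the opposite signs of the 2 medians are not independent. The median was 0.11 without the first CBR+SAM library, 0.036 without the second, and 0.047 without the first CBR library.

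Mrpl11, which forms the base of the factor-binding stalk, was the only member with an unadjusted p under 0.05, against 3.09% of all genes. It had 13.8 and 15.3 with CBR+SAM, against 9.52 and 10.3 with CBR. The change of 0.51 ± 0.17 log2 (SE) had a 95% interval from 0.11 to 0.90 and an adjusted p of 0.988 (limma). Mrps33 had 1427 and 1779.9 with CBR+SAM, against 1286 and 1245 with CBR, a change of 0.33 ± 0.16 log2 (SE). Mrpl54, specific to mitochondria, had 22.1 and 25.7 with CBR+SAM, against 15.8 and 20.5 with CBR. Mrps12, the homologue of bacterial S12 at the decoding site, had 28.9 and 38.5 with CBR+SAM, against 23.2 and 27.3 with CBR. Mrpl13 had 35.8 and 47.1 with CBR+SAM, against 30.0 and 34.7 with CBR. In all 5 genes both CBR+SAM libraries lay above both CBR libraries, as the rule for naming required. In each of the 5 the second CBR+SAM library was above the first.

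Fewer members lay lower with CBR+SAM. Mrps5 had 16.4 and 12.3 with CBR+SAM, against 18.3 and 20.3 with CBR, a change of -0.42 ± 0.20 log2 (SE) and the most negative of the family here. Mrpl1, the homologue of the L1 protein that guides the exit of transfer RNA, had 28.6 and 28.4 with CBR+SAM, against 31.3 and 32.2 with CBR. Mrps26, specific to mitochondria, had 44.4 and 40.8 with CBR+SAM, against 49.5 and 44.9 with CBR. For Mrps26 the groups were only just apart, and the interval ran from -0.65 to 0.36. Without the first CBR+SAM library, 20 members (26.3%) had an unadjusted p under 0.05, beside 19.3% of all genes in the same fit. Without the second CBR+SAM library or the first CBR library 0 did, beside 3.85% and 1.98% of all genes. In the fit without the first, the remaining CBR+SAM library is assumed to vary like the other groups, and 0 members passed the adjusted threshold.

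With CBR+SAM against DMSO, again no member passed the test. It called 0 of the 76 members, against 0.00816% of all genes (limma, Benjamini-Hochberg), and 0 had an unadjusted p under 0.05, against 2.14% of all genes. The 35 positive and 41 negative changes had a median of -0.023 log2, beside -0.0048 for all genes, of which 51% were negative. Groups did not overlap for 6 members that were higher and 12 that were lower, 7.89% and 15.8% of the 76, against a background of 12.4% and 12.1%. The median changed sign when the first CBR+SAM library (0.015) or the second DMSO library (0.0015) was left out. The libraries here are those of the comparisons above.

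Mrps16, the homologue of bacterial S16, had 35.3 and 40.9 with CBR+SAM, against 29.9 and 33.3 with DMSO, a change of 0.26 ± 0.16 log2 (SE) and the largest positive one. Mrpl11 had 13.8 and 15.3 with CBR+SAM, against 12.9 and 11.4 with DMSO. Mrpl54, Mrps15 and Mrpl57 were also higher in both CBR+SAM libraries, as the rule for naming required. Their changes of 0.20, 0.14 and 0.11 log2 did not pass the test. Mrpl4, the homologue of bacterial L4 in the tunnel wall, had 17.6 and 15.3 with CBR+SAM, against 19.3 and 22.7 with DMSO, a change of -0.33 ± 0.17 log2 (SE). Mrpl55 had 71.4 and 62.8 with CBR+SAM, against 79.2 and 79.3 with DMSO. Mrpl12 had 9.98 and 10.9 with CBR+SAM, against 12.1 and 12.3 with DMSO. Mrpl55 and Mrpl12 were thus below both DMSO libraries in all 4 libraries with CBR-5884, and so were Mrpl32, Mrps18c, Mrps6 and Mrpl27. The share of all genes with this pattern was not counted. Both comparisons use the same DMSO libraries, so they are not independent. Mrpl1 and Mrps18c stood at -0.22 and -0.29 log2, and the Mrps18c libraries with CBR+SAM were far apart at 27.1 and 39.6, against 39.9 and 40.9 with DMSO.

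**Figure D4:**
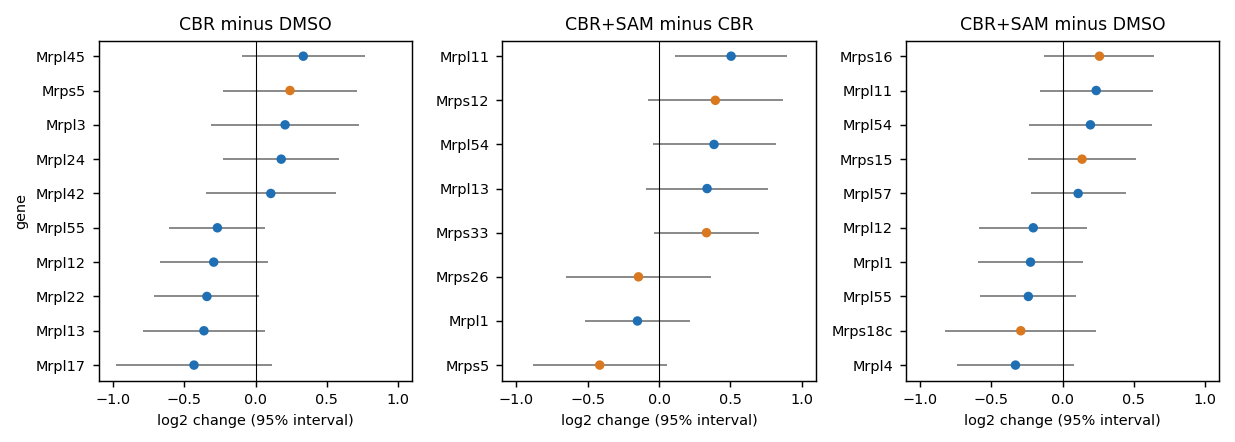
Fitted log2 change with its 95% interval for the members with the smallest p-values in each direction, in the 3 comparisons (blue for Mrpl, orange for Mrps genes). Only the interval of Mrpl11 for CBR+SAM minus CBR, from 0.11 to 0.90, leaves out 0, and no adjusted p passed 0.05.

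The intervals bound how large a difference could have been. The 95% interval of a member is not adjusted for the number of genes tested. It had a median half-width of 0.444 log2 in each comparison, 0.429 for the 66 members with a mean of at least 10. It left out a log2 change of 1 in either direction for 75 of the 76 members for CBR against DMSO, and for all 76 for CBR+SAM against CBR and against DMSO. Estimated changes were below 0.5 in size for every member in the 3 comparisons other than Mrpl11, at 0.51 for CBR+SAM against CBR.

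Large and small subunits showed similar medians. For CBR against DMSO the median change was -0.069 log2 for the 48 Mrpl genes and -0.11 for the 28 Mrps genes. For CBR+SAM against CBR it was 0.045 for Mrpl and 0.12 for Mrps genes, and for CBR+SAM against DMSO it was -0.0017 for Mrpl and -0.051 for Mrps genes. The large minus small differences of 0.039, -0.077 and 0.050 log2 are set beside an SD of 0.148 between replicates of a group in the same quantity. Assigning Mrps30 and Mrps18a to the large subunit and Mrps36 to neither left each difference within that SD. Members with a bacterial homologue and those specific to mitochondria had medians of -0.064 and -0.089 for CBR against DMSO, 0.069 and 0.078 for CBR+SAM against CBR, and 0.0037 and -0.059 for CBR+SAM against DMSO.

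**Figure D5:**
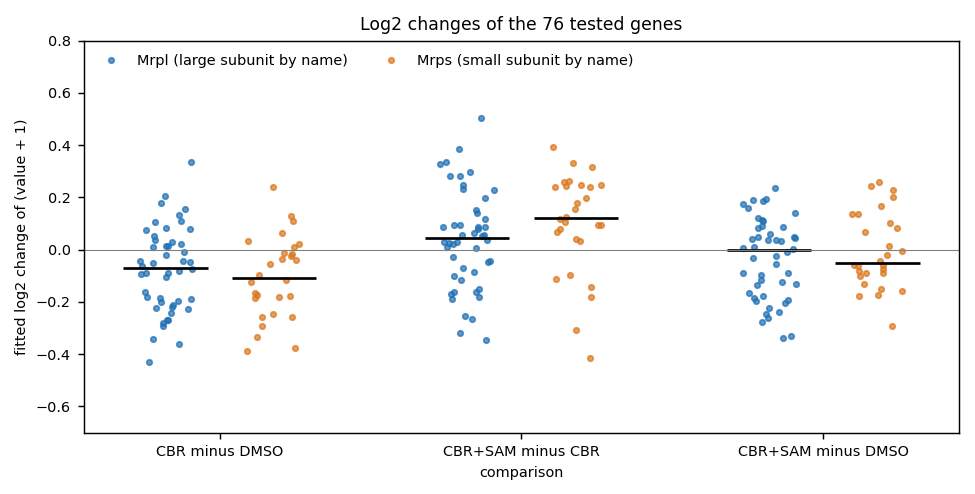
Fitted log2 change of each of the 76 tested genes in the 3 comparisons, with Mrpl genes on the left and Mrps genes on the right of each and a line at the median. The points overlap widely between the subunits, with Mrps medians of -0.11, 0.12 and -0.051 beside Mrpl medians of -0.069, 0.045 and -0.0017, and all points lie between -0.43 and 0.51.

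Mitoribosome subunits with other names did not pass the test either. Dap3, a GTP-binding protein of the small subunit, had 163 and 132 with CBR+SAM, 157 and 167 with CBR, and 166 and 173 with DMSO. Ptcd3, which lies at the messenger RNA entry, averaged 46.3, Chchd1 43.4, Gadd45gip1 13.7 and Aurkaip1 10.1. The Dap3 libraries with CBR+SAM lay below both DMSO libraries, and the other 4 genes overlapped between those groups. Among the genes that serve the mitochondrial ribosome, none of the 12 tested of 13 translation factors, 11 of 20 genes for aminoacyl-tRNA synthesis, 22 of 28 for assembly and ribosomal RNA modification, or 12 of 12 for transcription and upkeep of mitochondrial DNA passed the test in any comparison.

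Of the 57 tested genes in those 4 lists, 2 had an unadjusted p under 0.05 for CBR against DMSO, 3 for CBR+SAM against CBR and 4 for CBR+SAM against DMSO. These are 3.51%, 5.26% and 7.02% of the 57, against 2.12%, 3.09% and 2.14% of all genes. Mtif3, a mitochondrial initiation factor, had 37.5 and 31.2 with CBR+SAM, against 51.1 and 45.01 with CBR and 44.4 and 52.2 with DMSO. Mtfmt, which formylates the initiator methionyl-tRNA, had 41.8 and 43.1 with CBR+SAM, against 33.9 and 30.7 with CBR and 33.3 and 29.004 with DMSO. Mtif3 was lower and Mtfmt higher in both CBR+SAM libraries than in the other 4, with changes against CBR of -0.48 ± 0.17 and 0.39 ± 0.15 log2 (SE) and an adjusted p of 0.988 each (limma). Rpusd4, a pseudouridine synthase of the mitochondrial large ribosomal RNA, had 2.68 and 1.86 with CBR+SAM, against 4.79 and 4.26 with CBR. Slirp, which stabilises mitochondrial messenger RNAs, had 12.8 and 18.9 with CBR+SAM, against 9.34 and 9.98 with DMSO. Ddx28, a helicase of large-subunit assembly, had 2.44 and 2.41 with CBR, against 3.88 and 4.44 with DMSO. Qrsl1, a subunit of the enzyme that makes glutaminyl-tRNA, had 2.16 and 2.09 with CBR, against 0.733 and 0.993 with DMSO. The genes named were those with an unadjusted p under 0.05. In each of them the groups given did not overlap, and none passed the adjusted threshold.

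The genes of 2 related systems are given for scale. The 92 tested cytosolic ribosomal protein genes had median changes of -0.16 log2 for CBR against DMSO, 0.18 for CBR+SAM against CBR and 0.083 for CBR+SAM against DMSO. The 82 tested nuclear genes of the respiratory chain had medians of -0.16, 0.20 and 0.038. The corresponding medians of the mitochondrial ribosomal protein genes were -0.077, 0.078 and -0.023, and none of the genes of the 3 sets passed the test in any comparison. The second CBR+SAM library exceeded the first by a median of 0.44 log2 in each of these 2 sets, against 0.10 in the mitochondrial ribosomal protein genes. These differences between sets were not tested.

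The promoters of the family were read for binding motifs of factors known to control nuclear genes of mitochondria. RefSeq promoter entries (GRCm38.p6) were matched by symbol for 69 of the 78 members, and the 250 bases before the start were searched on both strands. The motif of NRF1, GCGCA and GCGC with any base between them, was found in 10 of 69 promoters (14.5%), against 5.84% of all 17492 promoters and 9.84% of those of tested genes. The ETS family motif CCGGAAG was found in 18 (26.1%, against 10.2% and 16.1%), the YY1 motif AANATGGCG in 2 (2.90%, against 1.56% and 2.66%) and the Sp1 family motif GGGCGG in 33 (47.8%, against 45.8% and 60.4%). Mrpl17 was the only gene of the 69 searched with both an NRF1 and an ETS motif, which are in capitals in its promoter below. It lies on the minus strand at chr7:105811088-105811337 and is given 5′ to 3′ in the direction of the gene, and its last 12 bases are annotated as exon in M21. A match of letters is a description and does not show a site in use.
Mrpl17: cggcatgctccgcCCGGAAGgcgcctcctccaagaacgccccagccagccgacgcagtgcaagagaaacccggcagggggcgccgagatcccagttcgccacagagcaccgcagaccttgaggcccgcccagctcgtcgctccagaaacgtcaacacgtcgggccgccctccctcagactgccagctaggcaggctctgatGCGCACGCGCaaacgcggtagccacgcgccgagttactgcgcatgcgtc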

How the data were processed

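The authors deposited 1 gene-level signal value per gene and library, an abundance that resembles kallisto's TPM. Column sums differ between libraries, so a further scaling took place, and how it was done is not given in the sources used here. The tools fastp, kallisto and DESeq2 and the build mm10 are named per the submitters' processing notes, with no versions or settings. SMART-Seq v4 cDNA and Nextera XT libraries are described per the labels' protocols, which state neither strand marking nor molecular identifiers. The unit is not counts, so the test for normalized values was used.

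Symbols, coordinates and biotypes came from GENCODE M21, in which 35820 of 36065 identifiers had a record. Tests ran on log2(value + 1) for the 12249 genes, 76 of them members, that reached a value of 1 in 2 or more libraries. A log2 change on this scale understates that of low genes. A limma 3.58.1 model (R 4.3.3) held all groups, with trended variance and 3 residual degrees of freedom. Benjamini-Hochberg adjustment covered every gene of a comparison, with a threshold of 0.05. The fit was tested on simulated data with the same spread in every group and changes larger than those estimated for the members. It does not bear on smaller changes. Medians over members are descriptions.

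Named members were, per comparison, up to 5 higher and 5 lower with the smallest p, required to average 10 or more and to show no overlap between groups. To these were added the 8 highest and 8 lowest tested, those not tested, the 5 largest replicate differences, and a fixed set with special roles. From the lists of genes that serve the mitochondrial ribosome, those with an unadjusted p under 0.05 in a comparison were named. The members and lists were chosen with earlier results of these data known. Subunit and origin follow published structures. Copies were searched with blastn 2.17.0 and exon overlaps with bedtools 2.31.1, and summaries and figures were made in Python 3.11.15. Alternatives were other filters, pseudocounts, scalings, weights and samples, a replicate block, and, chosen after seeing the data, levels with copies added and sums without Mrps33.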

Additional observations from a re-analysis of the deposited data

How the results depend on the processing

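Across 15 alternatives per comparison, 0 members passed the adjusted threshold in each, and the changes of the 28 gene and comparison pairs named above kept their direction and their side of the threshold in all 420 refits, with adjusted p-values (limma) from 0.124 to 1. The pairs were chosen for groups that do not overlap, so leaving out or reweighting a library could not reverse a direction. The kept direction in those refits is therefore no support for the changes. With the columns rescaled to the same sum, the median member change for CBR+SAM against DMSO was -0.1037 log2, beside -0.077 for all genes in that setting. Leaving out each library in turn gave medians from -0.12 to -0.031 for CBR against DMSO, 0.036 to 0.11 for CBR+SAM against CBR, and -0.052 to 0.015 for CBR+SAM against DMSO. The large minus small difference ran from 0.013 to 0.094, from -0.11 to -0.077, and from -0.063 to 0.050, and in the last it changed sign without the second CBR+SAM library or either DMSO library. Members with an unadjusted p under 0.05 numbered 0 to 5 for CBR against DMSO, 0 to 20 for CBR+SAM against CBR, and 0 to 9 for CBR+SAM against DMSO. The 5 (6.58%) came with array weights, beside 4.47% of all genes in that fit, and the 20 (26.3%) and 9 (11.8%) without the first CBR+SAM library, beside 19.3% and 16.7%. The labels do not say that replicate numbers mark a shared batch. With a replicate block the medians were unchanged at -0.077, 0.078 and -0.023, the large minus small differences were 0.039, -0.077 and 0.050, and 0 members passed, with 2, 2 and 0 at an unadjusted p under 0.05, beside 2.91%, 4.52% and 2.78% of all genes. Deviations of same-numbered libraries correlated across the members at 0.588 for CBR and DMSO, 0.156 for CBR+SAM and CBR, and 0.355 for CBR+SAM and DMSO, from 2 pairs only. Over all genes the correlations were 0.392, 0.0911 and 0.218, in the same order. The cause of these shifts was not tested. With 2 libraries a group and unknown depth, small changes were not detectable. The half-width of 0.444 log2 belongs to an unadjusted interval and is not the detection limit of the adjusted test. Mrpl11, at 0.51 log2 for CBR+SAM against CBR, had an adjusted p of 0.988 (limma). Values of members with copies or overlapping exons are uncertain.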
